A study of Mus musculus with 24 samples.

Results

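The mRNA levels of 34 endothelial cell genes were followed in dispersed pancreatic islet cells of wild-type mice under palmitate and under an antisense block of a tRNA fragment. The 34 are genes that endothelial cells are known for, taken by symbol, and each had 1 entry among the 41549 genes of the deposited table. They were grouped by role into 10 receptors and receptor partners, 6 ligands and secreted proteins, 10 junction and surface proteins, 6 transcription factors and 2 intracellular signalling proteins. The filter on low counts kept 31 of them among 15916 genes tested, and left out Cldn5, Aplnr and Tal1, whose highest counts in any library were 20, 55 and 12.

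The cells came from C57BL/6NRj mice of both sexes, 12 to 14 weeks old, and were transfected with 50 pmol of an antisense oligonucleotide (ASO), either a control (Ctr) or one against the tRNA-derived fragment 5'tRF-Glu(CTC) (αGlu). They were then kept for 48 h in 1% serum with 0.5 mM palmitate on albumin (PA) or with 0.75% albumin alone (BSA). Crossing ASO and medium made 4 groups (Ctr BSA and Ctr PA with the control ASO, αGlu BSA and αGlu PA with the other) of 6 libraries, 3 in batch 1 (S1 to S12) and 3 in batch 2 (S13 to S24), with 18214719 to 35001979 counts per library. The study states that the groups of a replicate came from the same animals or cells, but the labels do not say which libraries those are, what a batch was, or how many mice went into a preparation, so all tests below are unpaired. Every group was transfected, so no library shows untreated islet cells, and the islets were dissociated before transfection. P-values measure the spread between libraries.

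Islets are among the most densely vascularized parts of the pancreas, and their capillaries are fenestrated. Beta cells make the growth factor VEGF-A, which acts on the endothelial receptor KDR (VEGFR2), while FLT1 (VEGFR1) binds the same ligand and limits its supply and FLT4 (VEGFR3) binds VEGF-C and VEGF-D. The receptor TEK (TIE2) and its ligand angiopoietin-2, the cadherin CDH5 of the junctions between cells, and the factors ERG, ETS1 and SOX7, SOX17 and SOX18 complete much of the set that endothelial cells use to form and hold vessels.

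The sequences shown are the oligonucleotide that made the αGlu groups and promoters of some receptors and of a secreted protein whose results follow. The αGlu ASO and its target are given 5' to 3', with capitals for the 20 bases of the target that are complementary to the ASO.
αGlu ASO: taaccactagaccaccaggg
target: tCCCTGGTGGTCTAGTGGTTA

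Many endothelial promoters are bound by ETS factors such as ERG and ETS1. RefSeq promoters of build GRCm38.p6 were matched by symbol for 17 of the 34 genes, with 22 starts, and the 250 bases before each start were searched on both strands for AGGAAG, an ETS core. It was present at 11 of the 22 starts (50%) and at 29.5% of the 32851 starts of all genes. Of the other motifs searched in the same way, the SOX core ACAATG was found at 4.55% of the 22 endothelial starts and at 10.7% of the starts of all genes. The GATA core AGATAA was found at 9.09% of the endothelial starts and at 9.99% of the starts of all genes. The letters CACCC, which KLF factors can bind, were found at 59.1% of the endothelial starts and at 52% of the starts of all genes. The ETS letters stand in capitals below, where Eng and Flt1 hold 2 matches each and Kdr and Esm1 hold none. The promoter of Flt4, which is not printed, also holds none.
Eng (chr2:32646345-32646594, + strand): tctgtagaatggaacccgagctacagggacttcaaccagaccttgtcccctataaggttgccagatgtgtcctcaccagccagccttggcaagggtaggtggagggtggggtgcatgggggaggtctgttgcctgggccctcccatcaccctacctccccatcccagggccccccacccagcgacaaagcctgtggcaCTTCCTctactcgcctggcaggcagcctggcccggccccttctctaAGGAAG
Flt1 (chr5:147726012-147726261, - strand): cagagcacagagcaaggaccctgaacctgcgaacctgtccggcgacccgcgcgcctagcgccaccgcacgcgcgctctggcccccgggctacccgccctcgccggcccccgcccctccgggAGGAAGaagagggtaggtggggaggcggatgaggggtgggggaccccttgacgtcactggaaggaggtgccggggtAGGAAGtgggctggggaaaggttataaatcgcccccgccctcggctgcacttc
Kdr (chr5:75978456-75978705, - strand): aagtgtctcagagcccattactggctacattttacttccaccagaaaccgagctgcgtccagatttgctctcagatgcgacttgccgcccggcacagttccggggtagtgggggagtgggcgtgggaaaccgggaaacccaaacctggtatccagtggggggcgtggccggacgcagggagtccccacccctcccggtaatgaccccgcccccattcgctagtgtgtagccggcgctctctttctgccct
Esm1 (chr13:113209409-113209658, + strand): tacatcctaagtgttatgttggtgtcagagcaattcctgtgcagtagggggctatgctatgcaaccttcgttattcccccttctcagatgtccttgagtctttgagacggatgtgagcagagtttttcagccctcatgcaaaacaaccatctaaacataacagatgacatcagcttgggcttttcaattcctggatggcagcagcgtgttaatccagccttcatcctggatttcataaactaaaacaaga
A match is a string of letters and was not tested as a binding site.

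The endothelial genes were detected at low levels. Levels between genes were compared in TPM, transcript units scaled for gene length and library size. In Ctr BSA the highest median was that of Eng, a co-receptor for TGF-beta and BMP ligands, with 9.91 TPM and a range of 7.17 to 16.3 TPM over 6 libraries. Angpt2, the gene of angiopoietin-2, followed with a median of 8.33 TPM, then Ramp2, a partner of the receptor for adrenomedullin, with 6.60 TPM, and Ets1 with 6.23 TPM. Esam, a junction adhesion protein, had a median of 5.88 TPM, and Esm1, a proteoglycan secreted by sprouting endothelial cells, 5.25 TPM. The VEGF receptors lay lower, at 2.49 TPM for Kdr, 1.23 TPM for Flt1 and 0.893 TPM for Flt4. The most used endothelial markers Cdh5 and Pecam1 had medians of 2.83 and 2.39 TPM. Sox17, Aplnr, Tal1 and Cldn5 closed the order at 0.242, 0.114, 0.0530 and 0.0285 TPM. Every pair of neighbours in this order overlapped in range. Levels of one gene between libraries are given in CPM, counts scaled to library size. Of the defining markers of the labelled islet cells, Ins2 and Ins1, the insulin genes, had means of 58191 and 28684 CPM.

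Depth and quality differed between libraries. S1 and S23 had the lowest limma quality weights, 0.325 and 0.168 where the highest was 2.06, and 8.83% of the counts of S23 were mitochondrial. In batch 1, S9, S10, S11 and S12, which are 1 library of each group, stood apart for the endothelial genes themselves. They were the lowest of the 3 libraries of their group and batch for 27, 30, 26 and 28 of the 31 genes tested. Results are therefore also given without S1 and S23 and without S9 to S12, both chosen after the values were seen.

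Palmitate was compared with BSA in each ASO arm and over both, in 1 edgeR quasi-likelihood model of all 24 libraries with a term for batch. A gene was called at an adjusted p under 0.05, and differences are log2 fold changes ± SE. In Ctr cells 3 of the 31 endothelial genes (9.68%) fell and none rose, where 14.5% of all genes tested fell and 15.5% rose. In αGlu cells the count was also 3, where 14.2% of all genes fell and 14.4% rose. Over both arms 9 of 31 (29%) fell and none rose, where 22% of all genes fell and 23.4% rose, and 27 of the 31 log2 fold changes were below 0. The median over the 31 was -0.57, and that over all genes 0.0059. By role, 4 of 9 receptors fell (median -0.89), 2 of 9 junction and surface genes (-0.54), 2 of 6 ligands and secreted proteins (-0.51), 1 of 5 transcription factors (-0.68) and 0 of 2 signalling genes (-0.08). Blood cells also make 6 of the genes tested, Pecam1, Icam2, Ets1, Cd34, S1pr1 and Eng. Of the other 25, 7 (28%) fell over both arms, and 1 (4%), Flt4, fell in each arm alone. At a fold above 2 with an unadjusted p under 0.05, 4 fell over both arms (5.05% of all genes) and 5 in αGlu cells (4.74% of all genes). In bulk RNA, fewer endothelial cells, fewer other cells that make some of these genes, and less of their RNA per cell cannot be told apart.

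**Figure D1:**
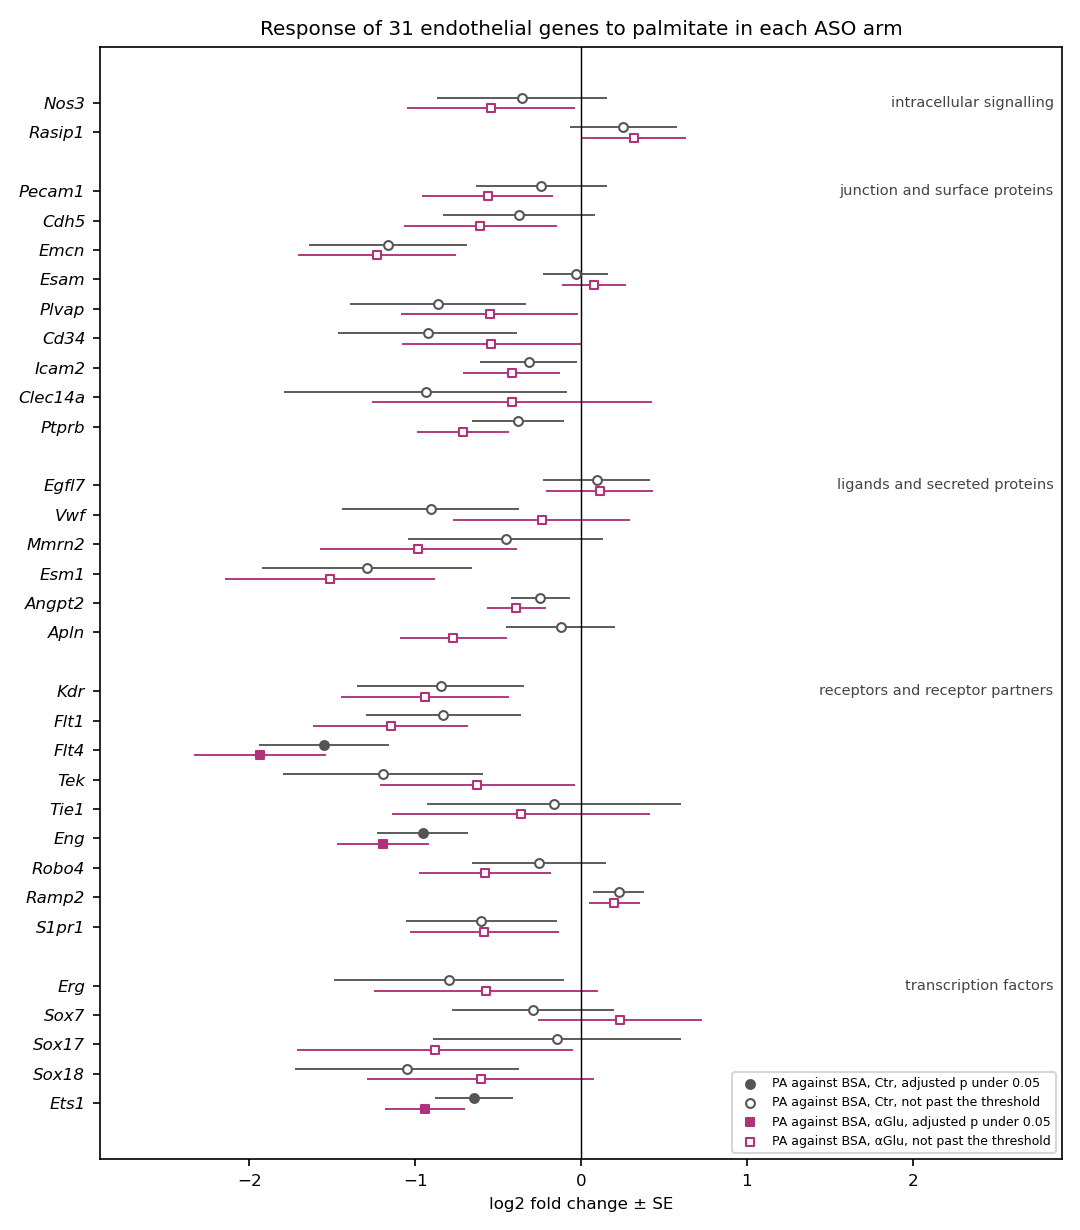
Log2 fold change of PA against BSA (horizontal axis) with its SE for the 31 endothelial genes tested, ordered by role, in Ctr cells (grey circles) and αGlu cells (magenta squares). Filled symbols had an adjusted p under 0.05, which in both arms were those of Flt4, Eng and Ets1, and the other symbols are open.

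Among the receptors, Flt4, Eng, Flt1 and Kdr fell over both arms, and Flt4 and Eng also in each arm alone. Flt4 ranged from 2.07 to 5.25 CPM (median 3.0) in Ctr BSA and from 0 to 2.34 CPM (median 1.02) in Ctr PA, where S23 had no count. In αGlu cells, Flt4 ranged from 2.58 to 4.55 CPM (median 3.73) under BSA and from 0.305 to 2.08 CPM (median 1.01) under PA. No αGlu PA library reached the lowest αGlu BSA library, which no other endothelial gene showed in either arm and which 3.95% of all genes showed as lower, while in Ctr cells the ranges overlapped. The log2 fold change of Flt4 was -1.55 ± 0.39, adjusted p = 0.00415 in Ctr cells and -1.93 ± 0.40, adjusted p = 0.000712 in αGlu cells. Flt4 thus stood at 0.342 and 0.262 of its BSA level. Over both arms its log2 fold change was -1.74 ± 0.28, adjusted p = 1.96e-05, and -1.27 in batch 1 alone and -2.37 in batch 2 alone.

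Eng ranged from 10.3 to 31.6 CPM (median 14.6) in Ctr BSA and from 5.62 to 14.3 CPM (median 8.32) in Ctr PA. In αGlu cells, Eng ranged from 8.75 to 25.7 CPM (median 14.9) under BSA and from 3.26 to 14.7 CPM (median 6.1) under PA. In Ctr cells the PA library S3 lay among the lower BSA libraries, and in αGlu cells S4 and S8 of PA lay above S10 of BSA, while in batch 2 αGlu PA lay wholly below αGlu BSA. The log2 fold change was -0.95 ± 0.27, adjusted p = 0.0106 in Ctr cells and -1.19 ± 0.28, adjusted p = 0.0022 in αGlu cells, and over both arms -1.07 ± 0.19, adjusted p = 8.40e-05. Within batches it was -0.84 in batch 1 alone and -1.41 in batch 2 alone. Without S1 and S23 the call in Ctr cells was lost, with an adjusted p of 0.0531. Exons of Eng overlap those of Fpgs on the other strand, and the strand setting of the counting is not given in the sources used here. Blood cells also make Eng, and their part in its values was not tested.

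Flt1 ranged from 3.01 to 13.3 CPM (median 6.04) in Ctr BSA and from 1.25 to 8.58 CPM (median 4.04) in Ctr PA. In αGlu cells, Flt1 ranged from 1.85 to 15.5 CPM (median 7.05) under BSA and from 0.564 to 9.88 CPM (median 2.38) under PA. The medians were lower under PA in both arms with wide overlap, and S24 and S23 were the lowest PA libraries. The difference passed the test over both arms (-0.99 ± 0.33, adjusted p = 0.0175) and in neither alone (-0.83 ± 0.47, adjusted p = 0.187 in Ctr cells, -1.15 ± 0.47, adjusted p = 0.0688 in αGlu cells). It was -0.58 in batch 1 alone and -1.53 in batch 2 alone.

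Kdr ranged from 2.23 to 14.8 CPM (median 8.2) in Ctr BSA and from 1.04 to 14 CPM (median 3.77) in Ctr PA. In αGlu cells, Kdr ranged from 2.37 to 17.2 CPM (median 8.4) under BSA and from 1.05 to 14.3 CPM (median 3.25) under PA. Libraries of each group spanned most of the range of the others, and the BSA ranges began at S9 and S10. The log2 fold change over both arms, -0.89 ± 0.36, adjusted p = 0.046, lay close to the threshold and was -0.24 in batch 1 alone and -1.69 in batch 2 alone. The call on Kdr was lost when 1 library was left out in 18 of 24 cases, namely without any of S1, S2, S5, S6, S7, S11, S12, S13, S14, S16, S17, S18, S19, S20, S21, S22, S23 or S24. It was kept without S9 to S12 together (log2 fold change -1.06, adjusted p = 0.00214). Those libraries were left out for their low endothelial levels, that of Kdr included, so this value is a description.

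Of the remaining receptors, Ramp2 was 1 of the 4 endothelial genes with a value above 0 over both arms, beside Esam, Egfl7 and Rasip1. Ramp2 ranged from 4.46 to 11.1 CPM (median 8.86) in Ctr BSA and from 7.62 to 11.4 CPM (median 9.49) in Ctr PA. In αGlu cells, Ramp2 ranged from 3.52 to 11.4 CPM (median 8.36) under BSA and from 6.78 to 12 CPM (median 9.57) under PA. The groups overlapped almost fully and the log2 fold change over both arms did not pass the test (0.21 ± 0.11, adjusted p = 0.114). Ramp2 shares exon bases on the same strand with Vps25, so its reads may be split uncertainly. Tek, Tie1, Robo4 and S1pr1 were between -0.91 (Tek, the angiopoietin receptor) and -0.26 (Tie1) with none called.

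**Figure D2:**
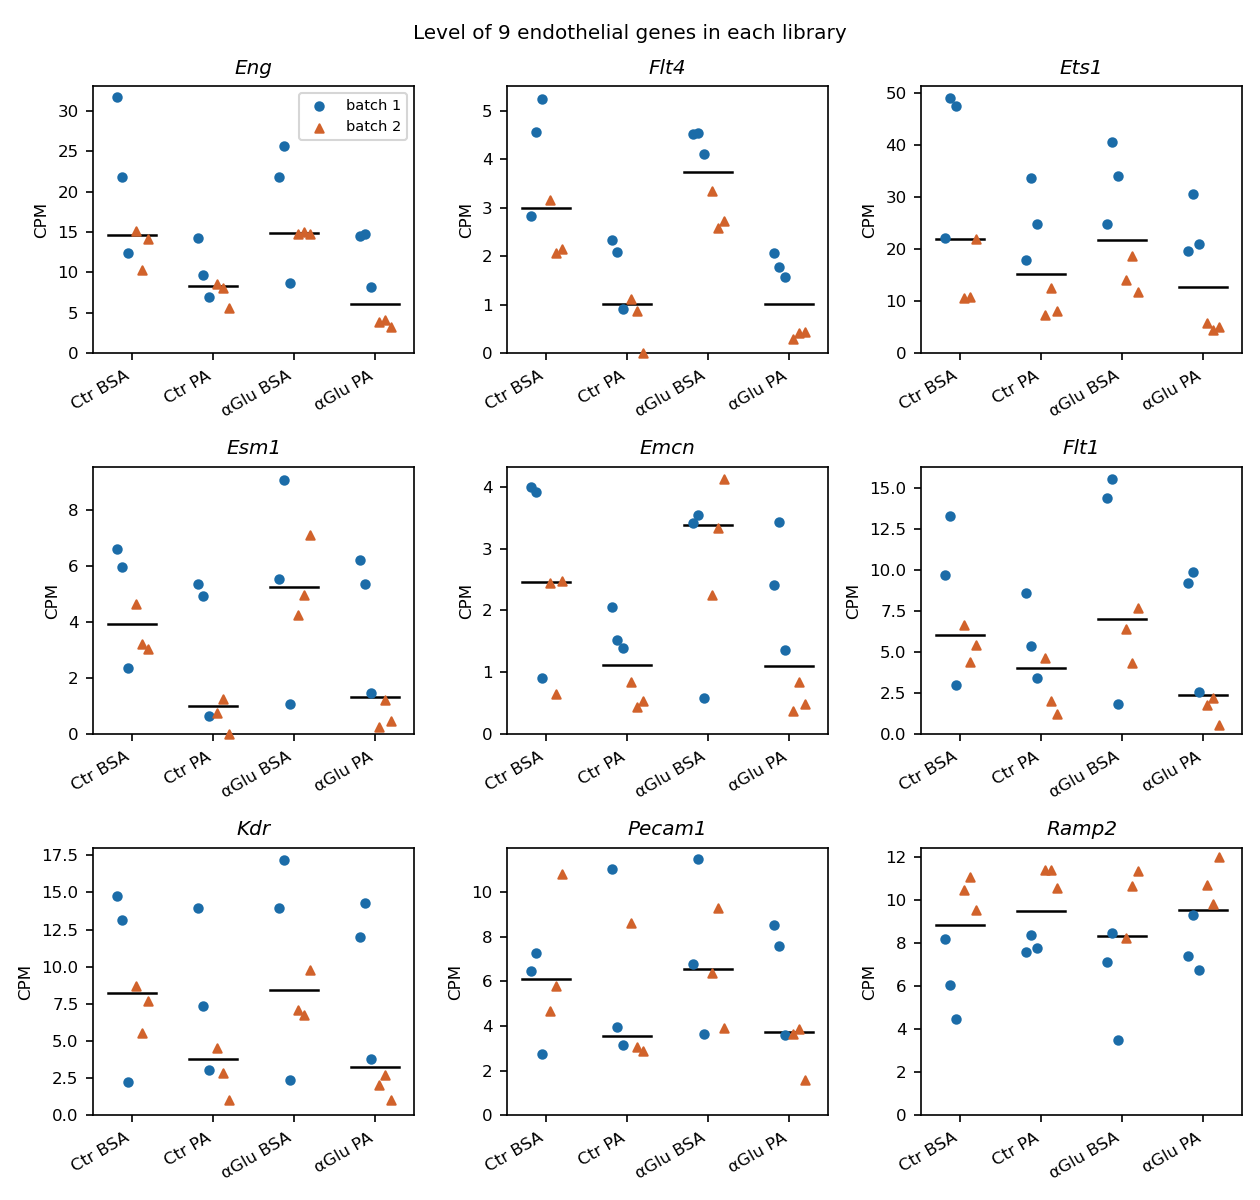
CPM (vertical axes, from 0) of 9 endothelial genes in each of 24 libraries by group, with circles for batch 1, triangles for batch 2 and a bar at the median of the 6 libraries. Flt4 is lower in all αGlu PA libraries than in any αGlu BSA library, Ets1 lies lower in batch 2 than in batch 1, and the medians of Ramp2 are higher under PA in both arms.

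Among ligands and secreted proteins, Esm1 and Angpt2 fell over both arms and none did in 1 arm alone. Esm1 ranged from 2.35 to 6.64 CPM (median 3.94) in Ctr BSA and from 0 to 5.39 CPM (median 1.02) in Ctr PA. In αGlu cells, Esm1 ranged from 1.08 to 9.09 CPM (median 5.25) under BSA and from 0.267 to 6.23 CPM (median 1.35) under PA. Under PA 2 libraries of batch 1 in each arm, S3 and S7 and S4 and S8, were at 4.96 CPM or above, and the other 4 of each arm were at or below 1.47 CPM, with no count in S23. The log2 fold change of Esm1 over both arms was -1.40 ± 0.46, adjusted p = 0.015, and -0.36 in batch 1 alone and -2.72 in batch 2 alone.

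Angpt2 ranged from 8.69 to 16.8 CPM (median 10.9) in Ctr BSA and from 8.61 to 14.2 CPM (median 9.6) in Ctr PA. In αGlu cells, Angpt2 ranged from 10.3 to 17.7 CPM (median 13.6) under BSA and from 7.13 to 15.2 CPM (median 10.4) under PA. All 4 ranges overlapped. Its log2 fold change over both arms was small (-0.32 ± 0.13, adjusted p = 0.0462), was -0.040 in batch 1 alone and -0.61 in batch 2 alone, and lost its call in 15 of 24 cases with 1 library left out (any of S1, S4, S6, S7, S11, S13, S14, S15, S16, S19, S20, S21, S22, S23 or S24). Egfl7, a secreted factor of endothelial cells and host of a microRNA, ranged from 1.65 to 5.54 CPM (median 2.66) in Ctr BSA and from 1.32 to 6.34 CPM (median 2.74) in Ctr PA. In αGlu cells, Egfl7 ranged from 1.36 to 4.62 CPM (median 3.17) under BSA and from 1.57 to 6.63 CPM (median 3.08) under PA. The groups did not separate (0.10 ± 0.23, adjusted p = 0.74 over both arms), and its exons overlap Agpat2 on the other strand. Apln, Mmrn2 and Vwf, the gene of von Willebrand factor, had -0.44, -0.72 and -0.57, none called.

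Among junction and surface proteins, Emcn and Ptprb fell over both arms. Emcn, the gene of the sialomucin endomucin, ranged from 0.643 to 3.99 CPM (median 2.46) in Ctr BSA and from 0.437 to 2.06 CPM (median 1.12) in Ctr PA. In αGlu cells, Emcn ranged from 0.593 to 4.13 CPM (median 3.38) under BSA and from 0.382 to 3.43 CPM (median 1.1) under PA. Medians were lower under PA in both arms, with overlap set by S9, S10 and S17 on the BSA side and S4 and S8 on the PA side. The log2 fold change over both arms was -1.20 ± 0.34, adjusted p = 0.00585, and -0.45 in batch 1 alone and -2.05 in batch 2 alone.

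Ptprb, the phosphatase VE-PTP that acts on TEK and CDH5, ranged from 4.01 to 7.67 CPM (median 6.28) in Ctr BSA and from 2.7 to 8.97 CPM (median 3.97) in Ctr PA. In αGlu cells, Ptprb ranged from 4.08 to 9.27 CPM (median 6.94) under BSA and from 2.18 to 6.95 CPM (median 4.01) under PA. The groups overlapped, with lower medians under PA in both arms. Over both arms the log2 fold change was -0.54 ± 0.20, adjusted p = 0.0266, and -0.15 in batch 1 alone and -0.99 in batch 2 alone, and the call was lost without S16, S19 or S24.

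The defining junction genes were not called. Cdh5 ranged from 0.743 to 7.15 CPM (median 4.17) in Ctr BSA and from 1.67 to 7.12 CPM (median 2.43) in Ctr PA. In αGlu cells, Cdh5 ranged from 1.39 to 7.11 CPM (median 3.95) under BSA and from 1.01 to 5.36 CPM (median 1.91) under PA. The ranges overlapped fully in Ctr cells, and over both arms the log2 fold change was -0.49 ± 0.33, adjusted p = 0.23, with a 95% interval of -1.16 to 0.18. Pecam1 ranged from 2.73 to 10.8 CPM (median 6.12) in Ctr BSA and from 2.9 to 11 CPM (median 3.54) in Ctr PA. In αGlu cells, Pecam1 ranged from 3.63 to 11.5 CPM (median 6.56) under BSA and from 1.57 to 8.52 CPM (median 3.74) under PA. Its groups overlapped too, with -0.40 ± 0.28, adjusted p = 0.253 over both arms and an interval of -0.98 to 0.18.

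Plvap, a component of the diaphragms of fenestrae, ranged from 1.4 to 6.64 CPM (median 2.57) in Ctr BSA and from 0.251 to 4.93 CPM (median 1.89) in Ctr PA. In αGlu cells, Plvap ranged from 0.418 to 5.99 CPM (median 3.1) under BSA and from 0.725 to 6.87 CPM (median 1.21) under PA. The ranges overlapped, and the log2 fold change over both arms was -0.71 ± 0.38, adjusted p = 0.132. Esam ranged from 4.7 to 8.31 CPM (median 6.02) in Ctr BSA and from 3.51 to 8.04 CPM (median 6.25) in Ctr PA. In αGlu cells, Esam ranged from 3.66 to 7.86 CPM (median 6.31) under BSA and from 4.02 to 7.76 CPM (median 7.01) under PA. Esam was nearly level (0.023 ± 0.14, adjusted p = 0.909), with an interval of -0.26 to 0.31. The other tested surface genes, Cd34, Icam2 and Clec14a, had log2 fold changes of -0.73, -0.37 and -0.67 over both arms, none called. Exons of Cd34 overlap those of Gm16897 on the other strand.

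Of the transcription factors, Ets1 fell in each arm and over both. Ets1 ranged from 10.7 to 49.1 CPM (median 22) in Ctr BSA and from 7.27 to 33.7 CPM (median 15.2) in Ctr PA. In αGlu cells, Ets1 ranged from 11.7 to 40.6 CPM (median 21.8) under BSA and from 4.44 to 30.6 CPM (median 12.7) under PA. The ranges overlapped in both arms, and within batch 2 all αGlu PA libraries lay below all αGlu BSA libraries. The log2 fold change was -0.65 ± 0.24, adjusted p = 0.0402 in Ctr cells and -0.94 ± 0.24, adjusted p = 0.00456 in αGlu cells, and over both arms -0.79 ± 0.17, adjusted p = 0.000444. Within batches Ets1 had -0.58 in batch 1 alone and -1.09 in batch 2 alone. The call in Ctr cells was lost without any 1 of S3, S5, S9, S11, S15, S21 or S23 and without S9 to S12 (adjusted p = 0.138). Lymphocytes and other blood cells also make Ets1, and both lymphocyte markers tested of 8 listed, Cd79a and Cd79b, fell over both arms, with a summed list level of 3.4 to 6.57 CPM in Ctr BSA and 1.32 to 3.58 CPM in Ctr PA, whose part in the result was not tested. Erg, Sox7, Sox17 and Sox18 had -0.68, -0.027, -0.51 and -0.83, none called, and Sox7 ranged from 0.197 to 1.32 CPM (median 0.79) in Ctr BSA and from 0.278 to 1.02 CPM (median 0.53) in Ctr PA. In αGlu cells, Sox7 ranged from 0.298 to 0.938 CPM (median 0.539) under BSA and from 0 to 1.39 CPM (median 0.84) under PA. The signalling genes Nos3, the endothelial nitric oxide synthase, and Rasip1, a Ras-interacting protein of vessel formation, had -0.45 and 0.29, neither called. Exons of Nos3 overlap those of Atg9b on the other strand. Exons of Rasip1 overlap Izumo1 on the same strand and A030001D20Rik on the other.

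The PA response was also read within each batch. Over both arms the median log2 fold change was -0.12 over the 30 genes tested in batch 1 alone and -1.13 over the 31 tested in batch 2 alone, and all 30 genes tested in both had the lower value in batch 2. Batch 1 alone called 1 endothelial gene, Flt4, and batch 2 alone called 14, where 26.8% and 27% of all genes were called. The test of the difference itself called none of the 31, where 0.0565% of all genes were called in either direction, although 7 had an unadjusted p under 0.05 (6.18% of all genes), 5 of them at a fold above 2 (1.49% of all genes), and all 31 differences were below 0, with a median of -0.82 beside -0.015 over all genes. Esm1 had the most negative difference (-2.37, unadjusted p = 0.00774, adjusted p = 0.572). S1pr1 had -1.69 (unadjusted p = 0.00734, adjusted p = 0.559). Without S9 to S12 the calls over both arms went from 9 to 16, with Tek, Plvap, Sox18, Cd34, Mmrn2, Apln and S1pr1 added, and those in Ctr and αGlu cells from 3 to 6 and 9. Of all genes 40.7% were called over both arms without these libraries, 25.5% in Ctr cells and 23.5% in αGlu cells. The 4 libraries were left out for their endothelial levels, so these counts are a description. Without S1 and S23 the count over both arms was 7, with Kdr and Angpt2 not called. That count describes the endothelial genes only and was not compared with genes at large.

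**Figure D3:**
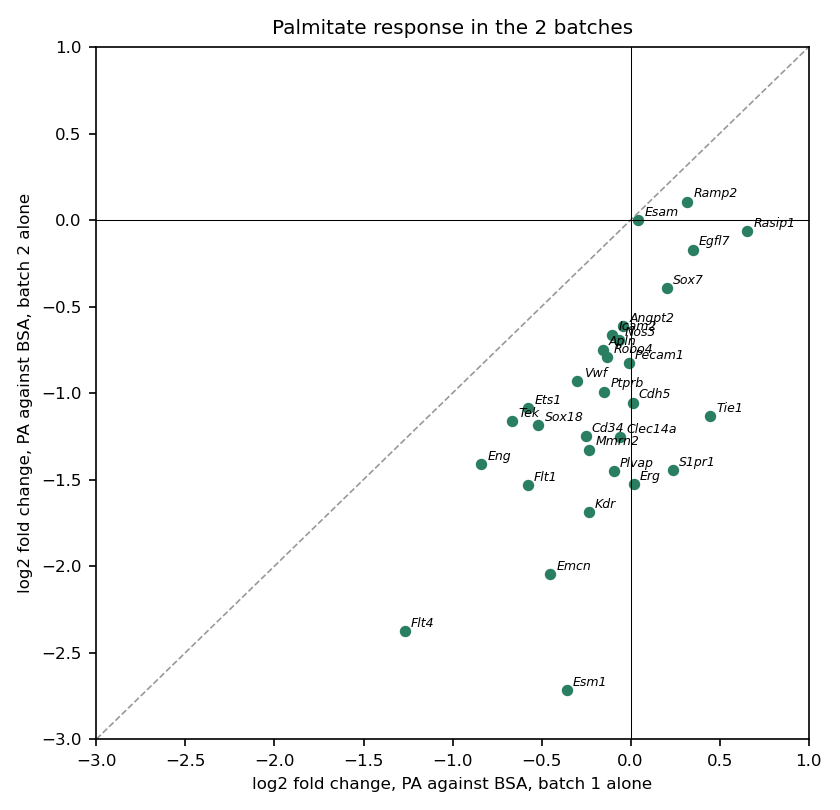
Log2 fold change of PA against BSA over both ASO arms in batch 1 alone (horizontal axis) and in batch 2 alone (vertical axis) for the 30 endothelial genes tested in both, with the dashed line of equal response. All 30 genes lie below the line, with Esm1, Flt4 and Emcn at the lowest values in batch 2.

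The batches also differed in level. At equal group, 10 endothelial genes were lower in batch 2 and Ramp2 was higher (0.59 ± 0.11, adjusted p = 7.12e-05), where 25.4% of all genes were lower and 26.1% higher. The lower genes were Ets1 (-1.55), Plvap (-1.44), Esm1 (-1.25), Flt4 (-1.17), Flt1 (-1.16), Kdr (-1.16), Sox7 (-1.14), Emcn (-0.88), Eng (-0.79) and Egfl7 (-0.62). The median over the 31 was -0.45. With 1 library left out, the call on Emcn was lost without any of S1, S3, S5, S8, S16, S17, S19, S20, S23 or S24 and that on Egfl7 without S1, S3, S4 or S24. Without S9 to S12 the count was 21 lower and 1 higher (48.4% of all genes in either direction), but as these batch 1 libraries were left out for their low endothelial levels, leaving them out raises batch 1 by construction. All 11 acinar genes were lower in batch 2, with a median of -4.44, and all 11 beta cell genes higher, and their part in the endothelial values was not tested.

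The αGlu ASO was then compared with Ctr under each condition, the question being whether blocking the fragment moved these genes. No endothelial gene passed in BSA or in PA, where 0% of all genes did in each, and none of the 31 had an unadjusted p under 0.05 by edgeR (2.9% and 3.38% of all genes), while DESeq2 and limma voom also called none. The median log2 fold change was 0.018 in BSA and 0.0054 in PA. The gene nearest to a difference in BSA was Apln, the ligand apelin (0.61 ± 0.32, adjusted p = 1.0), and in PA Ets1 (-0.41 ± 0.24, adjusted p = 0.993). For Kdr the 95% interval ran from -0.89 to 1.13 in BSA and from -1.02 to 1.07 in PA. For Angpt2, with less spread, it ran from -0.22 to 0.52 and from -0.37 to 0.38.

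The PA response was also compared between the arms directly. No endothelial gene passed, where 0% of all genes did, and none had an unadjusted p under 0.05 by edgeR (2.09% of all genes), and DESeq2 and limma voom called none. The difference for Flt4, αGlu minus Ctr, was -0.38 with an interval of -1.52 to 0.75, for Eng -0.24 with -1.04 to 0.56, and for Ets1 -0.29 with -0.98 to 0.40. The median αGlu effect in PA was 0.23 over the 30 genes of batch 1 alone and -0.50 over the 31 of batch 2 alone, a difference that was not tested.

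The 34 genes summed to 101.4 to 189.8 CPM (median 138.9) in Ctr BSA and 59.1 to 164.8 CPM (median 95) in Ctr PA. In αGlu cells the sum was 89.4 to 222.0 CPM (median 133.4) under BSA and 51.7 to 174.4 CPM (median 77.5) under PA. Genes of high CPM weigh most in the sum. Ets1 gave 22.2 of 185.4 CPM in S1 and 47.5 of 112.2 CPM in S9. The lowest sums were those of S24, S23, S16 and S20, all PA libraries of batch 2, and the ranges overlapped in both arms. In batch 2 alone Ctr BSA lay between 101.4 and 152.0 CPM and Ctr PA between 59.1 and 104.9 CPM, with S15 of PA above S17 of BSA. In batch 1 alone Ctr BSA lay between 112.2 and 189.8 CPM and Ctr PA between 85.2 and 164.8 CPM, which overlapped. In αGlu cells of batch 2, BSA lay between 128.2 and 134.3 CPM and PA between 51.7 and 66.3 CPM, without overlap. In batch 1 αGlu BSA lay between 89.4 and 222.0 CPM and αGlu PA between 88.6 and 174.4 CPM, and these overlapped.

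**Figure D4:**
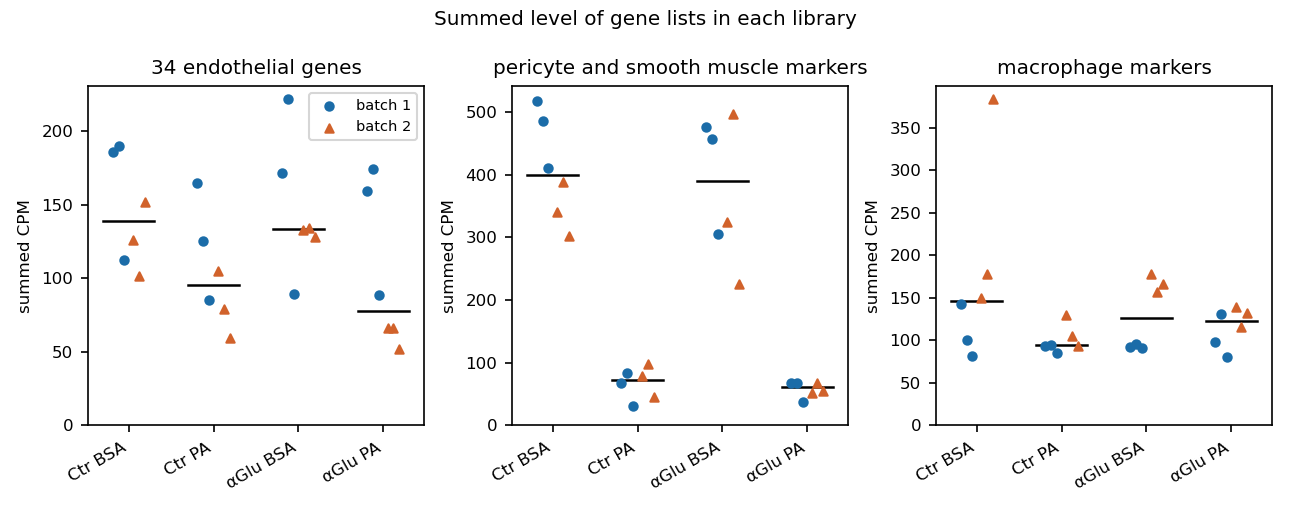
Summed CPM (vertical axes, from 0) of the 34 endothelial genes, of the pericyte and smooth muscle markers and of the macrophage markers in each library by group, with circles for batch 1, triangles for batch 2 and a bar at the median of the 6 libraries. The pericyte sums of all PA libraries are below those of all BSA libraries, while the endothelial sums overlap.

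Markers of the other cells of an islet digest were read in the same comparison. Of 12 pericyte and smooth muscle markers tested, 11 fell over both arms, with a median of -2.04, and their sum went from 302.4 to 517 CPM in Ctr BSA to 31.5 to 97.1 CPM in Ctr PA without overlap. Tagln and Acta2, both contractile genes, had -3.19 ± 0.21 and -3.07 ± 0.23. Of 11 fibroblast and stellate markers 10 fell (median -2.49, sum 108.1 to 566 CPM in Ctr BSA and 11.5 to 64.1 CPM in Ctr PA), and of 11 macrophage markers 6 fell (median -1.39, sum 81 to 384 CPM and 84.9 to 129.5 CPM). Of 11 acinar markers 10 fell (median -1.01), of 10 ductal markers 6 fell and 1 rose (-0.27), of 11 beta cell markers 4 fell and 3 rose (-0.024), of 10 alpha, delta and PP cell markers 5 fell and 1 rose (-0.20), of 10 glial markers 1 fell (-1.01), and the 1 red blood cell marker tested was not called. Only the red blood cell list had a gene, 1 of 6, at 0 in every library. Their part in the endothelial values was not tested.

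A further 35 genes that endothelial cells express were listed beside the 34. Of the 32 tested, 9 fell and 1 rose over both arms with a median of -0.49. The gene that rose, named after its value was seen, was the endothelin receptor gene Ednrb (1.05 ± 0.23, adjusted p = 0.000579). The 3 of highest CPM were Slco2a1 (0.13 ± 0.061, adjusted p = 0.0790), Adgrf5 (0.032 ± 0.085, adjusted p = 0.785) and Nrp1 (-1.04 ± 0.22, adjusted p = 0.000445). Nrp1, a co-receptor of KDR, is also made by other cells. Among the ligands and partners of VEGF, angiopoietin, apelin and BMP signalling, 19 of 27 fell and 2 rose, with a median of -0.59. The 2 that rose, named after their values were seen, were Vegfa (0.15 ± 0.036, adjusted p = 0.00164) and Vegfb (0.60 ± 0.059, adjusted p = 1.26e-08). Of the highest CPM beside Vegfa, Ece1, the endothelin-converting enzyme, and the receptor Notch1 fell (-0.23 ± 0.041 and -0.87 ± 0.055). Of the 6 lymphatic genes 4 were tested: Prox1 (0.16 ± 0.062) and Lyve1 (0.79 ± 0.083) rose and Pdpn (-2.69 ± 0.22) fell, though endocrine cells and macrophages also make some of these.

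Across libraries the endothelial genes varied together beyond additive terms for group and batch. After group and batch were removed from log2 CPM, the median correlation of a gene with the mean of the other 30 was 0.86 over the 24 libraries, and that of 15885 other genes with the mean of the 31 was 0.023. Kdr was the closest with r = 0.96, followed by Tie1 (0.94), Flt1 (0.93) and Plvap (0.92). Ets1 was the farthest with r = 0.11, after Flt4 (0.49), Sox7 (0.56), Angpt2 (0.56) and Sox17 and Ramp2 (both 0.63). Ets1 and Flt4, the farthest, were among the 3 genes called in each arm alone, beside Eng (r = 0.87). A PA response that differed between batches was not removed, and its part in these correlations was not tested. These libraries share depth and scaling, and without S9 to S12 the median was 0.73, with Ramp2 at -0.053. Ets1 then had r = 0.27, and Flt4 and Eng 0.68 each.

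**Figure D5:**
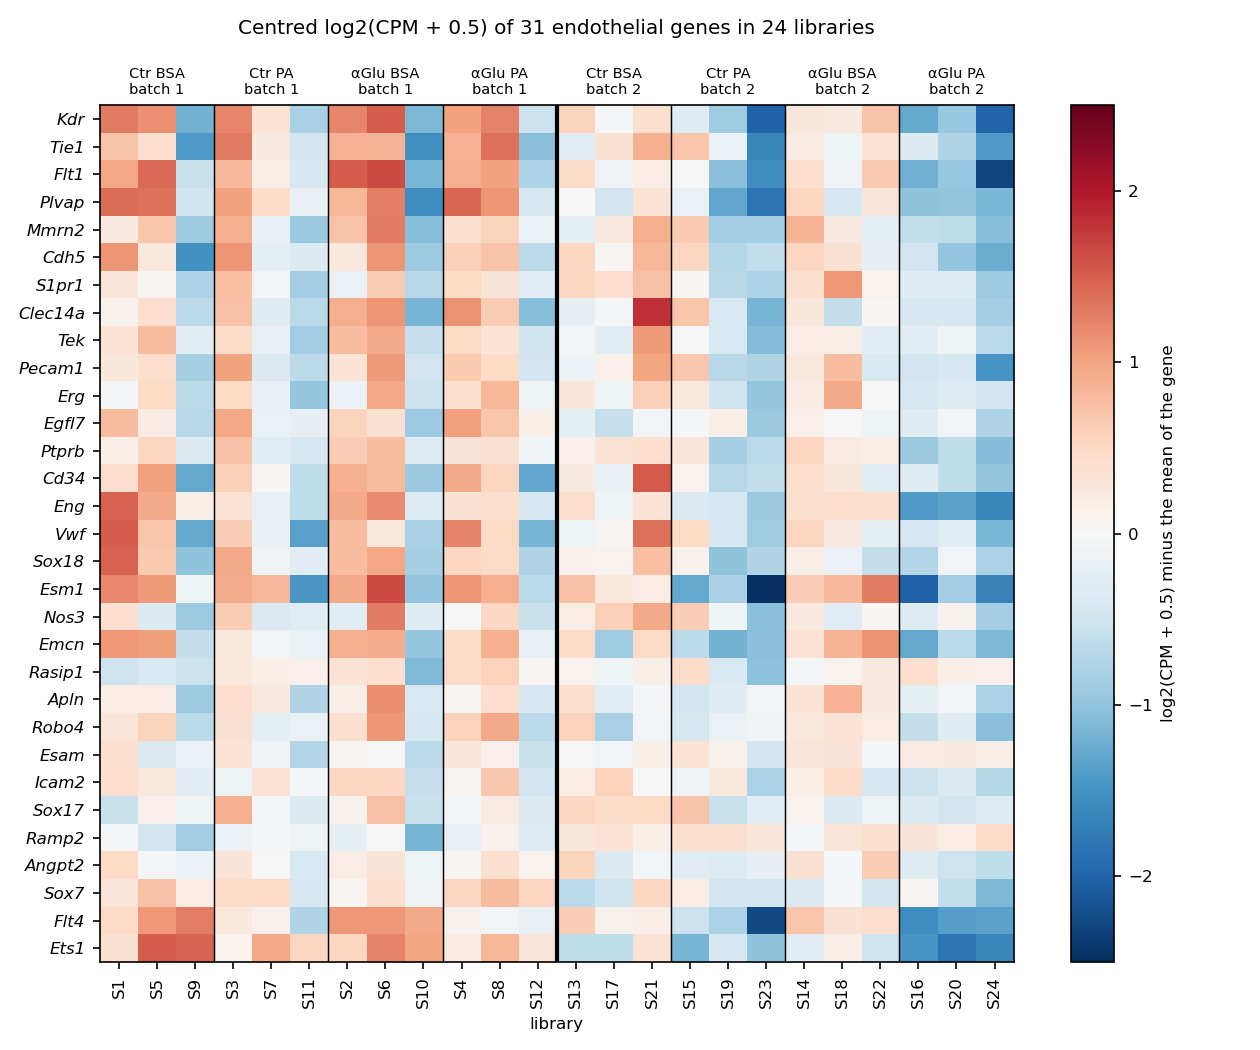
Log2(CPM + 0.5) of the 31 endothelial genes minus the mean of each gene (colour) in 24 libraries, grouped by group and batch and ordered from the gene closest to the others (Kdr, top) to the farthest (Ets1, bottom). S9 to S12 are blue (below the gene's mean) for most genes while Flt4 and Ets1 are red in S9 and S10, and S23 and S24 are blue for most genes.

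By the same measure the other genes most like the endothelial mean were Arap3 (r = 0.94), She (0.91), Sparcl1 (0.90), Gimap4 (0.90), Cd93 (0.87), Adgrl4 (0.87), Arhgef15 (0.87), Ace (0.86), Shisa5 (0.86) and Gimap6 (0.86). Of these 10, She, Cd93, Adgrl4 and Arhgef15 were on the list of further endothelial genes, and 1 of the 10, Sparcl1, fell under PA over both arms (-1.0, adjusted p = 0.0209). The median r with the endothelial mean was 0.67 for the further endothelial genes, 0.57 for pericyte, 0.52 for fibroblast and 0.50 for macrophage markers. It was 0.43 for alpha, delta and PP cell markers, 0.13 for ductal, -0.095 for beta cell, -0.095 for glial and -0.41 for acinar markers.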

How the data were processed

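Illumina stranded mRNA libraries of 24 mouse islet cell samples were sequenced by the authors and processed in the QIAGEN RNA-seq Analysis Portal 5.1. The deposited table holds counts of reads on exons. It also holds deposited RPKM and TPM values of each gene. The submitters' processing notes name GRCm38 as genome build, while aligner, annotation and strand setting were not given in the sources used here. Deposited CPM values were not used, nor was 1 line without a gene, with 0 counts. Here, counts were filtered by filterByExpr (minimum 10), scaled by TMM and tested by edgeR 4.0.16 quasi-likelihood F-tests with Benjamini-Hochberg adjustment over 15916 genes, with group and batch as terms. CPM in the text are TMM-scaled. Alternatives used limma 3.58.1 voom and DESeq2 1.42.0. The fit was also run on simulated counts that held no batch differences, so that run does not check how batches were handled. Exon overlaps between genes are from GENCODE M21, and the promoter positions are those of the RefSeq promoters of build GRCm38.p6. The endothelial genes and all lists were chosen with earlier results of these data known. All 34 genes are accounted for. The lowest, median and highest CPM are given for the 12 genes of largest mean CPM and all genes called in any comparison. The labels group libraries, and the study calls the 6 of a group independent experiments. The biological coefficient of variation common to all genes tested was 15.4%. It does not describe the endothelial genes, whose residual SD of log2 CPM ran from 0.296 (Ramp2) to 1.73 (Tie1).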

Additional observations from a re-analysis of the deposited data

Results flagged for a closer look

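In 8 of 124 groups of 6 libraries, that is 31 endothelial genes in 4 groups, 1 library lay farther from the rest than Dixon's 95% limit allows, for which the gap to its neighbour had to exceed 0.625 of the range of log2 CPM. In independent groups drawn from 1 normal population, chance would mark about 1 in 20. Here each group spans both batches and the genes vary together, so that rate is no measure for these 8. Of the 8, 5 were S10, the lowest of αGlu BSA. In S10 the share was 0.721 for Tie1 (0.0349 CPM, next 0.953), 0.729 for Rasip1 (0.488 CPM, next 1.54) and 0.678 for Emcn (0.593 CPM, next 2.25). It was 0.655 for Esam (3.66 CPM, next 6.04) and 0.638 for Esm1 (1.08 CPM, next 4.26). S12 was lowest for Esam in αGlu PA (share 0.780, 4.02 CPM, next 6.72), and S9 for Cdh5 in Ctr BSA (0.626, 0.743 CPM, next 3.13). S23 had no count of Flt4, the receptor of VEGF-C and VEGF-D, where the next Ctr PA library had 0.873 CPM (0.731).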

How the results depend on the processing

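Calls among the endothelial genes moved most with the batch term and with libraries. For PA against BSA in Ctr cells (3 called) the count was 0 without a batch term, 1 in batch 1 alone, 6 without S9 to S12 and 1 in batch 1 alone without them. In αGlu cells (3 called) it was 5 by DESeq2, 5 by limma voom with quality weights, 5 at a fold above 2 with unadjusted p under 0.05, 1 without a batch term, 1 and 10 in batches 1 and 2 alone, 9 without S9 to S12 and 0 in batch 1 alone without them. Over both arms (9 called) it was 3 without a batch term, 1 and 14 in batches 1 and 2 alone, 16 without S9 to S12, 4 in batch 1 alone without them and 4 at a fold above 2. For batch 2 against batch 1 (11 called) it was 22 without S9 to S12, which raises batch 1 by construction, and for the difference between batches (0 called) 5 at a fold above 2 with unadjusted p under 0.05. The cause was not tested. At a fold above 2, 4.74% of all genes were lower in αGlu cells and 5.05% over both arms, and 1.49% differed between batches. Where no share of all genes is given here or above, the counts of this section describe the endothelial genes only. They are not compared with genes at large. With each library left out in turn, the counts ran from 2 to 4 in Ctr cells, 3 to 8 in αGlu cells (8 without S8 or S10, 6 without S4 or S9), 6 to 11 over both arms and 9 to 14 between batches, and 0 to 0 for the αGlu comparisons, the difference between ASOs and that between batches. In PA over both arms, Eng, Flt4, Esm1, Emcn, Flt1 and Ets1 kept their calls in all 24 cases. No called gene changed sign in any alternative. By RPKM in place of TPM 30 of 34 genes kept their place in the Ctr BSA order, and the summed level changed by less than 1 SD under both of its alternatives.

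Depth limits the lowest genes, since Cldn5 and Tal1 had no count in 7 libraries each and Aplnr in 4, and the filter on low counts left them out. No paired analysis was possible because the labels give each library its own number and do not link those of 1 preparation. Differences between preparations therefore stay in the spread between libraries. A gene that was not called is thus not shown to be unmoved.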
